A study of Apis mellifera with 18 samples.

Results

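The mouthparts of honey bees that had collected olive pollen (Olea europaea, called olea here) were compared with the mouthparts of a control group labelled no pollen. All 12285 genes with enough counts in the mouthparts were compared, of 17545 genes in the table, in 3 olea and 3 control libraries out of 18 libraries in all. The bees are Italian honey bees, and the other libraries come from mouthparts of bees that had collected pear pollen and from tissue labelled tentacles, with 3 libraries for each group and tissue. The labels give no age, task, colony or number of animals, so they do not say whether the libraries of a group are separate animals or pools, and p-values measure only the spread between these libraries. The labels of the olea mouthparts libraries conflict, as the title and source name pear pollen and only the genotype entry names Olea europaea pollen. Every result here rests on the genotype entry.

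Worker bees handle nectar, pollen and brood food with their mouthparts, and secretions of the head glands reach the food there. The hypopharyngeal gland of the head makes major royal jelly proteins, the main proteins of brood food, in nurse bees. In bees that forage it makes more of the enzymes that turn nectar into honey, which are alpha-glucosidase, amylase and glucose oxidase.

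Library totals were 27.8 to 29.3 M counts in the control mouthparts, 25.9 to 26.8 M with olea and 37.0 to 40.3 M with pear, where M is 1e6 counts. Levels are given as CPM, counts per 1e6 counts of the library, and a difference in log2 is given with its standard error. The mouthparts label was checked with proboscipedia (GB51302), the homeotic gene that shapes the labial parts in insects, which stood between 60.8 and 77.8 CPM in the control and olea mouthparts and at no more than 0.314 CPM in the tentacles of those groups. Within the mouthparts proboscipedia was lower with olea, with log2 differences of -0.27 ± 0.08 from control (adjusted p = 0.022) and -0.51 ± 0.08 from pear. The other mouthparts marker, the homeotic gene deformed (GB51299), was at 171.6 to 186.4 CPM in controls and 198.9 to 217.2 CPM with olea. Its difference from control was 0.15 ± 0.06 and did not pass, and it was lower with olea than with pear, by 0.28. On the first principal component of log2 CPM, with 43.9% of the variance, the olea libraries lay at -3.9 to 2.5, between the controls at -41.6 to -38.2 and the pear libraries at 39.7 to 43. The second component, with 19.6%, set the olea libraries apart at -34.8 to -27.1 from control and pear, all at 12 or more. Olea replicate 2 stood apart from the other olea libraries, with a chi-square per gene of 29.3 and 33.4 against them, whereas olea replicates 1 and 3 differed by 11.3. Pear replicate 2 stood further apart, at 45.7 and 49.9 against 11.6 between the other pear libraries. Olea replicate 1 had the most royal jelly transcripts of the olea libraries.

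Of the 12285 genes, 3293 passed at a Benjamini-Hochberg adjusted p under 0.05 in edgeR's quasi-likelihood test, which is 26.8%. With olea 1472 genes were higher, 12% of those tested, and 1821 were lower, 14.8%. The counts of list members given below for olea against control are to be read beside these shares. A change of at least 2-fold was fitted for 81 of the higher and 295 of the lower genes. At an unadjusted p under 0.05 there were 4674 genes. Scaling by library totals alone gave a similar number of calls, 3336, but 59.4% of them were higher, against 44.7% with the scaling used here. Without olea replicate 2 the count was 3157, and it was lowest, at 2303, without control replicate 1.

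Among genes with a name or domain, the largest falls were those of royal jelly genes. GB55205, named yellow-f in the table and carrying the major royal jelly protein domain, stood at 41255.5, 44389.5 and 41285.5 CPM in the control libraries and at 828, 181 and 242 CPM in the olea libraries. The groups were far apart, and olea replicate 1 was the highest olea library. The gene fell by 6.73 ± 0.75 in log2 (adjusted p = 0.0014). GB55212 went from between 10881 and 11693 CPM to 78.7, 12 and 18.1 CPM, and fell by 8.33 ± 0.89. GB55204 went from between 7799 and 8311 CPM to 31.3, 5.37 and 7.7 CPM, and fell by 9.14 ± 0.82. Both again had their highest olea value in replicate 1. In bulk tissue, fewer cells of a type and less RNA per cell cannot be told apart.

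Other royal jelly genes of lower abundance did the same. GB45796 was at 515 to 582 CPM in controls and at 1.5, 0.708 and 1.2 CPM with olea, and fell by 9.0 ± 0.16 (adjusted p = 3e-11), with little spread between the olea libraries. GB55213 was at 1856 to 1948 CPM and then at 35.4, 32.9 and 30.9 CPM, and fell by 5.90 ± 0.09 (adjusted p = 1.7e-12). These are the members with the smallest p. GB55206, GB55211, GB45797, GB55209 and GB55208 fell as well, with log2 differences of -8.40, -8.13, -6.66, -5.47 and -5.20, and GB55207 fell by 2.58 ± 0.45, from 653 to 907 CPM down to 235, 75.6 and 95.0 CPM. Sequence relatives with the same domain may share reads in the authors' counts, so the split of the counts among these neighbours is uncertain.

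A few relatives did not fall. GB45951, which the table names L-dopachrome tautomerase yellow-f2-like, rose from between 6544 and 6779 CPM to 10346, 9042 and 10556 CPM, by 0.52 ± 0.09 in log2 (adjusted p = 0.0013). It was the most abundant member of the family with olea. GB52810 rose by 0.37 ± 0.08, from 502 to 600 CPM up to 680 to 776 CPM. GB55214 and GB55203 did not pass, at log2 differences of -0.08 ± 0.08 and -0.09 ± 0.08. The royal jelly domain is shared with the yellow proteins, which take part in insect pigmentation, and the table does not tell the branches apart.

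The table holds 28 royal jelly family genes, of which 26 were tested, and 17 fell, 2 rose and 7 did not pass, with a median of -1.15 in log2 against -0.01 for all genes. Together the family took 8.21%, 8.79% and 8.3% of all counts in the control libraries, and 1.32%, 1.06% and 1.24% with olea. Most of what remained with olea came from GB45951. In the pear mouthparts the family took 0.929% to 1.16%.

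**Figure D1:**
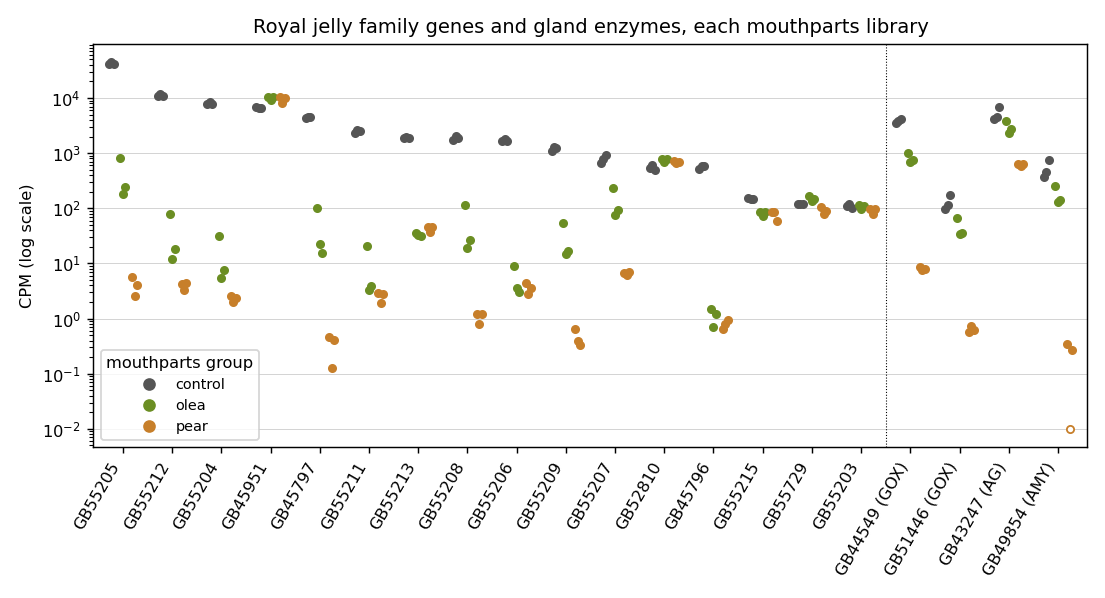
Levels in CPM on a log axis in each mouthparts library (points) for the royal jelly family genes of at least 100 CPM in a group and, right of the dotted line, glucose oxidases (GOX), alpha-glucosidase (AG) and amylase (AMY). An open point at the bottom is a library with no count. Control points lie above olea points for most genes, GB45951 is higher with olea, and glucose oxidase GB44549 is intermediate with olea, at 703 to 1018 CPM, and near 8 CPM with pear.

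The enzymes of nectar ripening also fell, by less. Glucose oxidase (GB44549), which makes hydrogen peroxide from glucose, was at 3538, 3818 and 4193 CPM in controls and at 1017.5, 703 and 760.5 CPM with olea. It fell by 2.28 ± 0.13 in log2 (adjusted p = 9e-07), with the olea libraries well below every control. In the pear mouthparts it was at 7.63 to 8.66 CPM. Alpha-glucosidase (GB43247), which splits sucrose, was at 4094, 4489 and 6792 CPM and then at 3883, 2347 and 2757 CPM. It fell by 0.84 ± 0.23 (adjusted p = 0.03), and its olea replicate 1 came close to the lowest control. Alpha-amylase (GB49854) fell by 1.66 ± 0.39, from 375 to 757 CPM down to 253, 133 and 140 CPM. A second glucose oxidase (GB51446) fell by 1.57 ± 0.32 to between 34.8 and 65.7 CPM.

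In contrast maltase 1-like (GB43248), another enzyme that splits sugars, rose from between 204 and 215 CPM to 402, 345 and 415 CPM, by 0.82 ± 0.08 (adjusted p = 1.8e-05). Of 20 tested members of this list, 7 fell, 3 rose and 10 did not pass, and without olea replicate 3 or with only the 6 libraries compared the number that fell was 4. Among the rest were glucose dehydrogenases, relatives of glucose oxidase, and their most abundant members GB43005 and GB44548 did not pass, at 0.22 ± 0.44 and 0.03 ± 0.08. The list took 1.11% to 1.5% of counts in the control libraries and 0.856%, 0.621% and 0.718% with olea. Olea replicate 1, the highest for the royal jelly genes, was the highest here too.

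Chaperones fell more often than they rose, among them the most abundant ones. Hsc4 (GB40866), a constitutive Hsp70 of the cytosol, was at 9569, 9559 and 9376 CPM in controls and at 5109, 4516 and 5065 CPM with olea, and fell by 1.02 ± 0.07 (adjusted p = 1.8e-06). Hsp90 (GB40976) fell by 1.10 ± 0.06, from between 3664 and 3913 CPM to between 1858 and 1872 CPM. Heat shock protein 83 (GB45495), of the same family, and the mitochondrial chaperone Hsp60 (GB54372) fell by 0.89 ± 0.06 and 0.94 ± 0.06. Of 51 heat shock proteins and their partners 19 fell, 2 rose and 30 did not pass, and the list took 2.39% to 2.47% of counts in controls and 1.64% to 1.66% with olea. The libraries of a group hardly differed in that share. GB45909, a small heat shock protein named lethal(2)essential for life, fell by 0.94 ± 0.07. The 2 that rose, chosen after their values were seen, were another gene named heat shock protein cognate 4 (GB50108, 0.40 ± 0.06) and a dnaJ homolog (GB55063, 0.26 ± 0.08). Leaving out control replicate 2, control replicate 3 or olea replicate 2 left 1 member that rose, and 4 rose with only the 6 libraries compared.

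The machinery that folds secreted proteins in the endoplasmic reticulum fell in part. Endoplasmin (GB41867), its Hsp90, went from between 681 and 738 CPM to 431, 379 and 401 CPM, and fell by 0.88 ± 0.07 (adjusted p = 4.3e-06). Protein disulfide-isomerase A6 (GB54601), which forms disulfide bonds, fell by 0.56 ± 0.06, Hsc3 (GB49117), the Hsp70 of that compartment, by 0.70 ± 0.07, and calreticulin (GB40461) by 0.31 ± 0.07. Among 46 members, 12 fell and 3 rose while 31 did not pass, with a median of -0.07, which was about 0 with library totals alone. Without control replicate 3 the number that rose was 1.

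Aminoacyl-tRNA synthetases, which load amino acids onto tRNA, fell for 11 of 40 and rose for 1. Valine--tRNA ligase (GB45284) went from 109, 97.8 and 103 CPM to 73.8, 80.0 and 73.1 CPM, and fell by 0.51 ± 0.06, and alanine--tRNA ligase (GB42773) fell by 0.48 ± 0.07. The number that fell was 7 without control replicate 3 or olea replicate 3, and also 7 with library totals or on log2(FPKM + 1). Ribosomal proteins went the other way, with 13 of 74 higher and 0 lower. At an unadjusted p under 0.05 there were 3 lower, and 2 were lower with DESeq2. Ribosomal protein L22 (GB52789) rose by 0.33 ± 0.06, from 169 to 188 CPM up to 223 to 242 CPM. Ribosomal protein S29 (GB42088) was at 34.7, 32.6 and 47.4 CPM in controls and at 58.2, 66.1 and 65.1 CPM with olea, a rise of 0.66 ± 0.15 that did not pass with all 18 libraries in the fit (adjusted p = 0.26). Control replicate 3 was the highest control for most of the ribosomal proteins that rose. Their number depended on the settings. It was 2 without control replicate 1 or olea replicate 3, 3 without control replicate 2, 8 with all 18 libraries and 20 with library totals alone.

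Oxidative phosphorylation genes rose for 13 of 66 and fell for 4. Cytochrome c oxidase subunit NDUFA4 (GB44153) went from 331, 297 and 380 CPM to 472, 481 and 514 CPM, a rise of 0.48 ± 0.08, while cytochrome c1 (GB46369) fell by 0.40 ± 0.05, from 172 to 176 CPM down to 134 to 144 CPM. The member with the smallest p, GB48788, has the name of a complex I subunit but a Rap/ran-GAP domain, and it rose by 0.68 ± 0.06. Without control replicate 2 the number that rose was 7, and without control replicate 3 or olea replicate 3 the number that fell was 2.

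Defence genes went both ways, more of them higher than lower. Phenoloxidase 2 (GB44996), the enzyme that starts melanin formation at wounds and on parasites, was at 185, 167 and 136 CPM in controls and at 21.1, 16.6 and 19.5 CPM with olea. The groups did not overlap, and the gene fell by 3.15 ± 0.12 in log2 (adjusted p = 7.5e-08). Defensin-1 (GB41428), an antimicrobial peptide that is also secreted into royal jelly, fell from between 1151 and 1393 CPM to 713, 529 and 559 CPM, by 1.14 ± 0.13. Other antimicrobial peptides rose. GB47318, with the bee antimicrobial peptide domain, went from 9.01, 8.01 and 10.3 CPM to 52.6, 34.2 and 32.4 CPM, a rise of 2.06 ± 0.23 (adjusted p = 0.00042). The apidaecin genes GB47546, GB46236 and GB51306 rose by 1.20 ± 0.19, 0.92 ± 0.13 and 1.01 ± 0.19. Olea replicate 1 was the highest for GB47318, GB47546 and GB46236 and the lowest olea library for GB51306, at 33.7 against 59.2 and 54.1 CPM.

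The recognition protein beta-1,3-glucan-binding protein 1 (GB42981), which binds fungal and bacterial sugars, rose by 0.77 ± 0.08, from 75.2 to 82.6 CPM up to 126 to 148 CPM. Dorsal (GB44031), the transcription factor of the Toll pathway, rose by 0.39 ± 0.07, and so did its inhibitor cactus (GB44185), by 0.39 ± 0.10. In all 10 of 28 tested immune genes rose, 4 fell and 14 did not pass. The 4 that fell were phenoloxidase 2, defensin-1, a toll gene (GB43456, -0.23 ± 0.08) and a tectonin repeat gene (GB46478, -0.24 ± 0.08), the last 2 chosen after their values were seen. The count that fell was 2 without control replicate 1, control replicate 2, olea replicate 1 or olea replicate 3. It was also 2 with RLE size factors, library totals, no filter on low counts, log2(FPKM + 1) or only the 6 libraries. Haemocyte markers moved as well. Of 5 tested, phenoloxidase 2, hemocytin (GB41850, -0.54 ± 0.07) and the hemocyte transglutaminase (GB52158, -0.34 ± 0.06) fell and the others did not pass, none of them at 0. A further hemocyte transglutaminase (GB41009) had no count in any of the 6 libraries. Their summed level was 0.0933% to 0.102% of counts in controls and 0.0688% to 0.0698% with olea, and its part in the immune results was not tested.

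**Figure D2:**
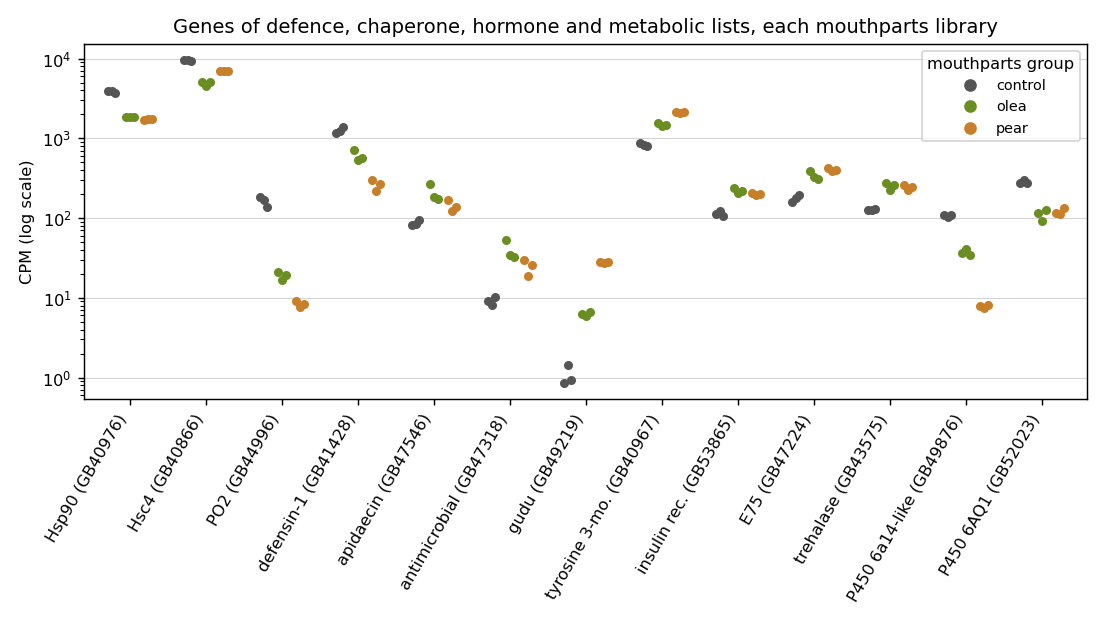
Levels in CPM on a log axis in each mouthparts library (points) for 13 genes of the defence, chaperone, hormone, metabolic and P450 lists; PO2 is phenoloxidase 2. Olea points lie away from the control points for all of them, as for phenoloxidase 2 at 16.6 to 21.1 against 136 to 185 CPM, and pear points lie beyond the olea points for gudu and P450 6a14-like.

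Storage and lipid transport genes fell in some branches. GB51698, named tyrosinase but with the hemocyanin domain of insect storage proteins, went from 508, 483 and 442 CPM to 116, 82.2 and 110 CPM, and fell by 2.28 ± 0.14 (adjusted p = 4.3e-06). GB49544, with the lipoprotein domain that vitellogenin and related lipid carriers share, fell by 1.48 ± 0.08, from 1344 to 1456 CPM down to 502 to 545 CPM. Other genes named by this domain did not pass. They were GB52464 (-0.18 ± 0.09), GB52465 (0.17 ± 0.10), GB52466 (-0.03 ± 0.09) and GB52467 (-0.01 ± 0.09). GB43738, a relative of GB51698, fell by 1.42 ± 0.14. Of 23 tested, 7 fell, 3 rose and 13 did not pass. The 3 that rose were apolipoprotein D (GB46318, 0.33 ± 0.08), an apolipophorin-like gene (GB55490, 0.31 ± 0.10) and a ferritin chain (GB43708, 0.20 ± 0.07), all chosen after their values were seen. Their number was 1 without control replicate 1, control replicate 3 or olea replicate 1, 0 without olea replicate 3 and 5 without olea replicate 2. Another gene named apolipoprotein D (GB46276) fell by 0.65 ± 0.10, and GB54020, of the same name, did not pass (-0.25 ± 0.12). Transferrin 1 (GB50226), an iron carrier of the blood at 3629 to 3753 CPM in controls, did not pass (0.06 ± 0.07). The 8 fat body markers, all of them also members of this storage list, took 0.447% to 0.466% of counts in controls and 0.417% to 0.487% with olea. Of them 3 were lower, 1 was higher and none was at 0, and these calls are among those counted above.

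Cytochrome P450 genes, a family of enzymes that oxidise toxins and hormones, fell for 19 of 47 tested and rose for 0, with 1 higher at an unadjusted p under 0.05. Cytochrome P450 6a14-like (GB49876) was at 110, 103 and 111 CPM in controls and at 36.5, 41.1 and 34.9 CPM with olea, and fell by 1.58 ± 0.07 (adjusted p = 6.5e-08). Cytochrome P450 6AQ1 (GB52023) fell by 1.42 ± 0.10, from 275 to 301 CPM down to 93.0 to 126 CPM, and P450 6a13 genes GB49887 and GB46842 fell by 1.12 ± 0.08 and 1.18 ± 0.10. None of these had overlapping groups, which the choice of the genes favoured. P450 315a1 (GB53709), which in flies acts in the synthesis of ecdysone, fell by 1.26 ± 0.17 to between 1.45 and 2.09 CPM. With olea replicate 2 left out 5 members rose, and 1 did with library totals, DESeq2, a 1 CPM filter or the replicate number in the model. The list took 1.67% to 1.69% of counts in controls and 1.49% to 1.76% with olea.

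Among 30 tested enzymes of detoxification other than P450 genes, 5 fell and 0 rose, with 2 higher at an unadjusted p under 0.05 and 0 with DESeq2. Their median was -0.06 and was 0.01 with library totals alone. The UDP-glucuronosyltransferases GB40997 and GB44058, which attach sugars to foreign compounds, fell by 1.27 ± 0.17 and 0.82 ± 0.13, the latter from 93.6, 102 and 109 CPM to 59.3, 58.5 and 62.3 CPM. The others were a carboxylesterase (GB43549, -0.52 ± 0.15), venom carboxylesterase-6-like (GB41540, -0.26 ± 0.08) and metaxin-1 (GB53672, -0.33 ± 0.07), chosen after their values were seen. Metaxin belongs to mitochondrial protein import. The number that fell was 3 without control replicate 2, control replicate 3 or olea replicate 1. The number that rose was 1 without control replicate 1 and 2 without olea replicate 2.

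Cuticle and chitin genes fell for 25 of 76 and rose for 7. GB41625, whose domain is the chitin-binding peritrophin-A domain although the table names it a zinc finger protein, went from 69.7, 69.1 and 67.0 CPM to 19.8, 18.6 and 20.8 CPM. It fell by 1.86 ± 0.07 (adjusted p = 2.1e-08). GB52294, with the same domain under the name of a GPI-anchor transamidase subunit, rose by 1.91 ± 0.13, from 10.8 to 11.6 CPM up to 40.6 to 48.7 CPM. Chitin-binding genes thus lay at both ends of the list. Pupal cuticle protein 20-like (GB46312), an abundant structural protein, rose by 0.53 ± 0.11, from 2952, 3052 and 3218 CPM to 5319, 3875 and 4722 CPM. Chitinase 10 (GB43173) rose by 0.78 ± 0.05, and the chitinase-like growth factor Idgf4 (GB48505) fell by 0.66 ± 0.08. The list took 2.27% to 2.33% of counts in controls and 2.18% to 2.54% with olea.

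Serine proteases and their inhibitors went both ways, with 11 of 55 higher and 12 lower. An ovochymase-type trypsin (GB52597) rose by 0.88 ± 0.07, from 17.7 to 20 CPM up to 34.1 to 37.9 CPM, and the inhibitor antichymotrypsin-2 (GB48820) rose by 0.48 ± 0.08 to between 892 and 1021 CPM. A transmembrane protease (GB40137) fell by 3.12 ± 0.35, from 2.32, 2.35 and 1.69 CPM to 0.374, 0.224 and 0.155 CPM, which is near the limit of detection. Persephone-like (GB49441) and snake (GB55007), named after fly proteases of the Toll cascade, rose by 0.51 ± 0.09 and 0.33 ± 0.06. On log2(FPKM + 1) the number that fell was 7.

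In fat and sugar metabolism, members of the same list moved in both directions. An elongase (GB54404), which lengthens fatty acids, went from 106, 104 and 105 CPM to 46.1, 35.4 and 38.0 CPM, and fell by 1.46 ± 0.09 (adjusted p = 4.8e-07), and its relative GB54396 fell by 1.16 ± 0.14. Fatty acid synthase (GB53412) fell by 0.36 ± 0.07, from 1299 to 1306 CPM in controls, while acetyl-CoA carboxylase (GB49336), the step before it, rose by 0.28 ± 0.06. Among 41 members, 9 rose and 10 fell while 22 did not pass, with a median of -0.03 that was 0.03 with library totals. Trehalase, which splits the blood sugar trehalose, rose in 3 copies. GB43575 went from 127, 126 and 129.8 CPM to 274, 226 and 261 CPM, a rise of 0.93 ± 0.07, GB43576 rose by 0.97 ± 0.08 and GB55489 by 0.44 ± 0.13. An aldolase (GB40734) fell by 1.06 ± 0.08, from 25.9 to 28.3 CPM down to between 13 and 13.9 CPM. The far more abundant aldolase GB40735 did not pass (0.33 ± 0.12), at 2360.5 to 2471.3 CPM in controls and 2872.5 to 3597.9 CPM with olea. Of 66 genes of central carbon metabolism 7 rose, 6 fell and 53 did not pass, which is under the shares over all genes of 12% higher and 14.8% lower. With library totals 12 rose and 3 fell, and without control replicate 1 or control replicate 2 the number that fell was 3.

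Membrane transporters of sugars and amino acids rose for 15 of 68 and fell for 8. Proton-coupled amino acid transporters were among those that rose, with GB51487 going from 63.8, 68.4 and 64.1 CPM to 154, 136 and 139.7 CPM, by 1.07 ± 0.07 (adjusted p = 1.1e-06). GB50434 rose by 0.87 ± 0.06 and GB46422 by 0.60 ± 0.06. The trehalose transporters Tret1-2 (GB52702) and GB54806 fell by 0.71 ± 0.06 and 0.70 ± 0.08, and another trehalose transporter (GB40972) rose by 0.32 ± 0.08. Olea and control libraries did not overlap for any of these, which the choice of the genes favoured.

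Sugar receptors gave little. The fructose-type receptor 43a (GB40382) was at 30.1, 31.4 and 31.5 CPM in controls and at 34.9, 38.8 and 34.8 CPM with olea, a difference of 0.16 ± 0.08 that did not pass (adjusted p = 0.17) and passed with library totals at 0.22. The sugar receptor 64f (GB44499) was at 1.28 to 1.98 CPM and 0.969 to 1.35 CPM, at -0.62 ± 0.23 (adjusted p = 0.063), and passed at -0.78 without control replicate 2, at -0.63 with all 18 libraries and at -0.61 with the replicate number in the model. Gustatory receptor 10 (GB44013) was the 1 of 9 tested that fell, from 1.33, 2.21 and 1.04 CPM to 0.224, 0.186 and 0.503 CPM, by 2.39 ± 0.48 (adjusted p = 0.0039). At such levels the receptors are close to the limit of detection in whole tissue.

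Genes for odorant binding proteins, small carriers of odours and other ligands, went both ways within the same family. GB53369, of the PBP/GOBP family, went from 96.2, 89.8 and 67.6 CPM to 0.86, 4.21 and 10.1 CPM, and fell by 4.14 ± 0.63 (adjusted p = 0.0046). GB55593 went from 187, 177 and 135 CPM to 9.79, 10.5 and 28.2 CPM, and fell by 3.43 ± 0.42, and GB53368 fell by 2.68 ± 0.26. Olea replicate 3 held the most of each. GB53372 rose instead, from 1185 to 1238 CPM up to 2050.3, 1570.5 and 1973 CPM, by 0.55 ± 0.10, and GB46229 and GB46228 rose by 0.46 ± 0.10 and 0.41 ± 0.09. GB54970, named transcriptional adapter 2B but with the domain of insect chemosensory proteins, rose by 1.19 ± 0.08 from 18.7 to 19.1 CPM up to 42.9 to 48.8 CPM. Of 82 tested receptors and binding proteins 18 fell, 5 rose and 59 did not pass. The number that fell was 42 with all 18 libraries, and the number that rose was 10 without olea replicate 2 and 8 with library totals.

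The binding proteins that fell most were abundant in the tentacles. Control tentacles held 11500.8 ± 880 CPM of GB53369 (SD, n = 3), and odorant receptor 2 (GB40730), the partner that odorant receptors of bees need, stood there at 415 to 514 CPM. In the mouthparts odorant receptor 2 was at 4.64, 4.42 and 2.38 CPM in controls, at 0.0748, 0.0745 and 0.503 CPM with olea, and at 0 in all 3 pear libraries. It fell by 4.19 ± 0.60 (adjusted p = 0.0022), and olea replicate 3 was again the highest olea library. Of the 54 tested odorant receptors, used as antenna markers, 10 fell and 0 rose, with 1 higher at an unadjusted p under 0.05 and 0 with DESeq2. A further 90 odorant receptors were under the count filter. Their summed level was 0.0077% to 0.00895% of counts in controls and 0.00577% to 0.00631% with olea.

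A wider set was taken after the values had been seen. It held the genes of at least 10 CPM in control tentacles that were at least 20-fold above the pear mouthparts. The pear libraries share the fit but not the contrast. A gene this low with pear may pass the count filter mainly through the control or olea libraries. The choice may thus favour falls, so the counts describe the set and are no test of it. Leaving out royal jelly and gland enzymes, 147 such genes were tested. Of these 51 fell and 0 rose, against 14.8% and 12% of all genes, and their median was -0.42. At an unadjusted p under 0.05 there was 1 that was higher, and with DESeq2 there were 0. They took 0.837%, 0.872% and 1.03% of counts in the control mouthparts, 0.417%, 0.327% and 0.377% with olea and 0.211% to 0.236% with pear. The binding proteins that rose, such as GB53372, were not of this set. The part of tissue carried over from the tentacles in these results was not tested.

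**Figure D3:**
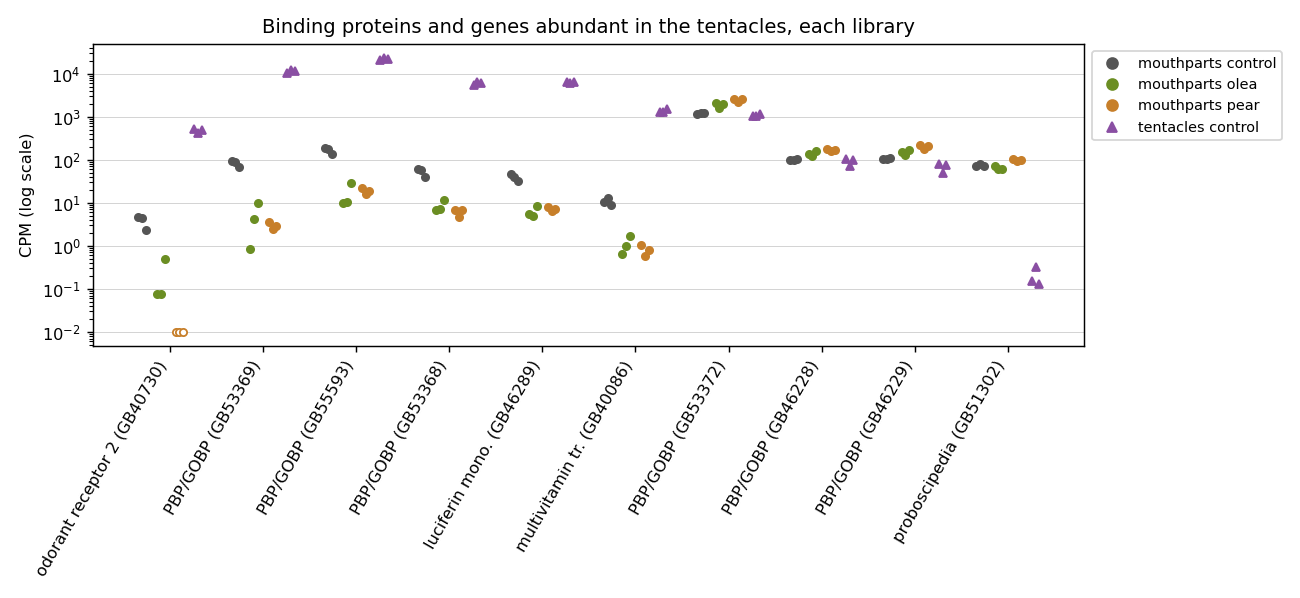
Levels in CPM on a log axis in each mouthparts library (circles) and in the control tentacles (triangles) for odorant receptor 2, 6 binding proteins of the PBP/GOBP family, 2 other genes abundant in the tentacles and proboscipedia. Open circles are libraries with no count. Odorant receptor 2 and the genes abundant in the tentacles are lower in olea than in control mouthparts, while GB53372, GB46228 and GB46229 are higher.

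Of 15 genes of dopamine and melanin synthesis 3 rose, 6 fell and 6 did not pass. Tyrosine 3-monooxygenase (GB40967), the enzyme that makes the precursor of dopamine, went from 867, 828 and 805 CPM to 1565, 1426 and 1459 CPM, a rise of 0.77 ± 0.07 (adjusted p = 7.5e-06). Henna (GB48022), the phenylalanine hydroxylase that supplies tyrosine, and the decarboxylase GB45973 rose by 0.28 ± 0.06 and 0.29 ± 0.06. A second aromatic amino acid decarboxylase (GB55830), at 2.31 to 2.66 CPM in controls, fell by 1.13 ± 0.22, and GTP cyclohydrolase (GB52348), which makes the cofactor of these hydroxylases, did not pass (0.01 ± 0.07). Others that fell were dopamine N acetyltransferase (GB51044), which inactivates dopamine, by 0.67 ± 0.08, the vesicular amine transporter GB42802, by 0.64 ± 0.10, and laccase-4 (GB53028), a cuticle tanning enzyme, by 0.33 ± 0.08. A more abundant gene named laccase-4 (GB41212) did not pass (0.49 ± 0.34), at 651.5 to 858.7 CPM in controls and 1028.5 to 1308.2 CPM with olea.

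Receptors of amines and neuropeptides rose for 4 of 33 and fell for 4, near the shares over all genes of 12% higher and 14.8% lower. The CCHamide-2 receptor (GB40054), for a peptide that signals feeding state in flies, rose by 0.66 ± 0.09, from 124 to 133 CPM up to 183, 239.8 and 219 CPM. A serotonin receptor (GB48005) fell by 0.97 ± 0.13, from 15.1 to 18.2 CPM down to 7.7 to 9.8 CPM. Octopamine receptor beta-2R (GB49696) and a tyramine receptor (GB53912) rose by 0.45 ± 0.08 and 0.36 ± 0.11, and the muscarinic receptors GB51727 and GB51689 fell by 0.42 ± 0.07 and 0.45 ± 0.11. The remaining genes that passed, a second CCHamide-2 receptor (GB40053, 2.19 ± 0.67) and a neuropeptide Y receptor (GB44014, -1.04 ± 0.28), were under 2.5 CPM in every control and olea library. Without control replicate 1 or control replicate 3, 2 rose.

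Genes tied to foraging and the clock passed often. The insulin receptor (GB53865) rose by 0.87 ± 0.07, from 114, 122 and 107 CPM to 235, 204 and 216 CPM (adjusted p = 3.7e-06), and an insulin-like receptor (GB55425) rose by 0.67 ± 0.09. Malvolio (GB54097), a manganese transporter that raises the response to sugar in bees, rose by 0.58 ± 0.07, from 209.9 to 219 CPM up to 311 to 356 CPM. The cGMP-dependent protein kinase, the product of the foraging gene, fell in its 3 tested entries, GB49906, GB49907 and GB49908, by 0.44 ± 0.09, 0.45 ± 0.11 and 0.35 ± 0.07. GB49907 did not pass without control replicate 1 (adjusted p = 0.054). Of 26 tested genes of this list 10 rose, 6 fell and 10 did not pass.

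Of the clock genes, cryptochrome 2 (GB51095), a repressor of the clock, rose by 0.42 ± 0.08, from 14.5 to 17.2 CPM up to 21.2 to 22.8 CPM. Period, another repressor, fell in both of its entries. GB52078 went from 54.4, 56.6 and 55.8 CPM to 40.7, 47.5 and 34.3 CPM, by 0.51 ± 0.10, and GB52077 fell by 0.43 ± 0.13. The fall of GB52077 did not pass without control replicate 2, olea replicate 1 or olea replicate 3, at adjusted p of 0.1, 0.055 and 0.08. The gene named aryl hydrocarbon receptor nuclear translocator-like protein 1 (GB43953) rose by 0.30 ± 0.06. The entries named circadian locomoter output cycles protein kaput (GB44365, -0.11 ± 0.09, and GB48028, 0.02 ± 0.05) did not pass. Neither did the timeless entries GB41002 (-0.37 ± 0.28) and GB41003 (-0.37 ± 0.27). The labels give no hour of sampling, so time of day and pollen group cannot be told apart.

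Nuclear receptors and immediate early genes rose for 10 of 35 and fell for 3. E75 (GB47224), induced by the moulting hormone ecdysone in insects, went from 160, 180 and 196 CPM to 394, 332 and 309 CPM, a rise of 0.89 ± 0.10 (adjusted p = 7e-05), and the ecdysone receptor (GB48059) rose by 0.53 ± 0.08. Kayak (GB42048), the insect Fos, rose by 0.82 ± 0.11 and its partner AP-1 (GB53318), the insect Jun, by 0.47 ± 0.08. HR38 (GB49295), an early response gene of active neurons in insects, did not pass, at 5.49, 4.35 and 2.99 CPM against 5.46, 6.74 and 4.25 CPM (0.30 ± 0.22, adjusted p = 0.35). Its relative NR4A2 (GB40074) rose by 0.64 ± 0.18 (adjusted p = 0.027), which did not pass without control replicates 1, 2 or 3 or olea replicate 2, at adjusted p of 0.099, 0.066, 0.067 and 0.059. The 3 that fell were HNF4 (GB45602, -0.47 ± 0.10), HR96 (GB52904, -0.36 ± 0.11) and GB50934 (-0.45 ± 0.14), chosen after their values were seen. The number that fell was 1 without control replicate 3 or with library totals, and 5 with all 18 libraries.

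Cilium genes fell for 16 of 71 and rose for 3. King tubby (GB46050), which brings receptors into sensory cilia, fell by 1.04 ± 0.14, from 6.04 to 7.17 CPM down to 3.07 to 3.87 CPM. Gudu (GB49219), an armadillo repeat protein needed for fly sperm formation, was at 0.853, 1.42 and 0.937 CPM in controls and at 6.21, 5.89 and 6.69 CPM with olea. It rose by 2.48 ± 0.16 (adjusted p = 9e-07), the largest rise among the named genes that met the rule for level and overlap. The dynein chains GB51673 and GB43214 were the others that rose, by 0.45 ± 0.11 and 0.20 ± 0.06. The number that fell was 9 without control replicate 1, control replicate 3 or olea replicate 3 and on log2(FPKM + 1), and 10 without control replicate 2. The number that rose was 5 without olea replicate 1, with library totals, with a 1 CPM filter and with thinned counts.

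Synapse genes, used as markers of neurons, rose for 9 of 51 and fell for 5, and their summed level was 0.192% to 0.203% of counts in controls and 0.212% to 0.23% with olea. Rab-3 (GB52842), of synaptic vesicles, fell by 1.32 ± 0.13, from 10.1 to 10.4 CPM down to 3.69 to 5.01 CPM, and the vesicular glutamate transporter (GB44987) by 0.67 ± 0.09. Synapsin (GB40625) rose by 0.36 ± 0.10 and SNAP-25 (GB44583) by 0.32 ± 0.08. The number that rose was 2 without control replicate 1, 3 without olea replicate 1 and 5 without control replicate 3, and the number that fell was 3 without control replicate 2 and with library totals.

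Muscle genes rose for 7 of 41 and fell for 3. Muscle-specific protein 20 (GB40253), a calponin-type protein, went from 125, 111 and 138 CPM to 313, 355 and 307 CPM, a rise of 1.32 ± 0.09. Troponin C (GB40619), the calcium sensor of contraction, rose by 0.52 ± 0.11, from 2738 to 3072 CPM up to 4153 to 4776 CPM, while troponin C-like (GB48216) fell by 2.01 ± 0.13, from 20.2 to 25.4 CPM down to 5.2 to 6.82 CPM. Muscle transcripts took 3.24% to 3.47% of counts in controls and 3.71%, 4.79% and 3.73% with olea, so olea replicate 2, which stood apart from the others, was also the highest here. Photoreceptor markers were at 0.0203% to 0.0217% of counts in controls and 0.0263% to 0.0311% with olea, with 1 of 10 higher and 1 lower. Most of that level was beta-arrestin-1 (GB42604), the member that rose, by 0.51 ± 0.07 from a mean of 127.3 to 189.9 CPM. Venom gland markers were at 0.0486% to 0.0511% and 0.0502% to 0.0603%, with 1 of 8 higher and 1 lower, and melittin (GB44112), the main venom peptide, was at 0.484 to 1.66 CPM in the 6 libraries. The venom acid phosphatase gene GB41326 fell from between 57.4 and 61.0 CPM to 3.59, 1.53 and 1.39 CPM, by 4.84 ± 0.31.

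**Figure D4:**
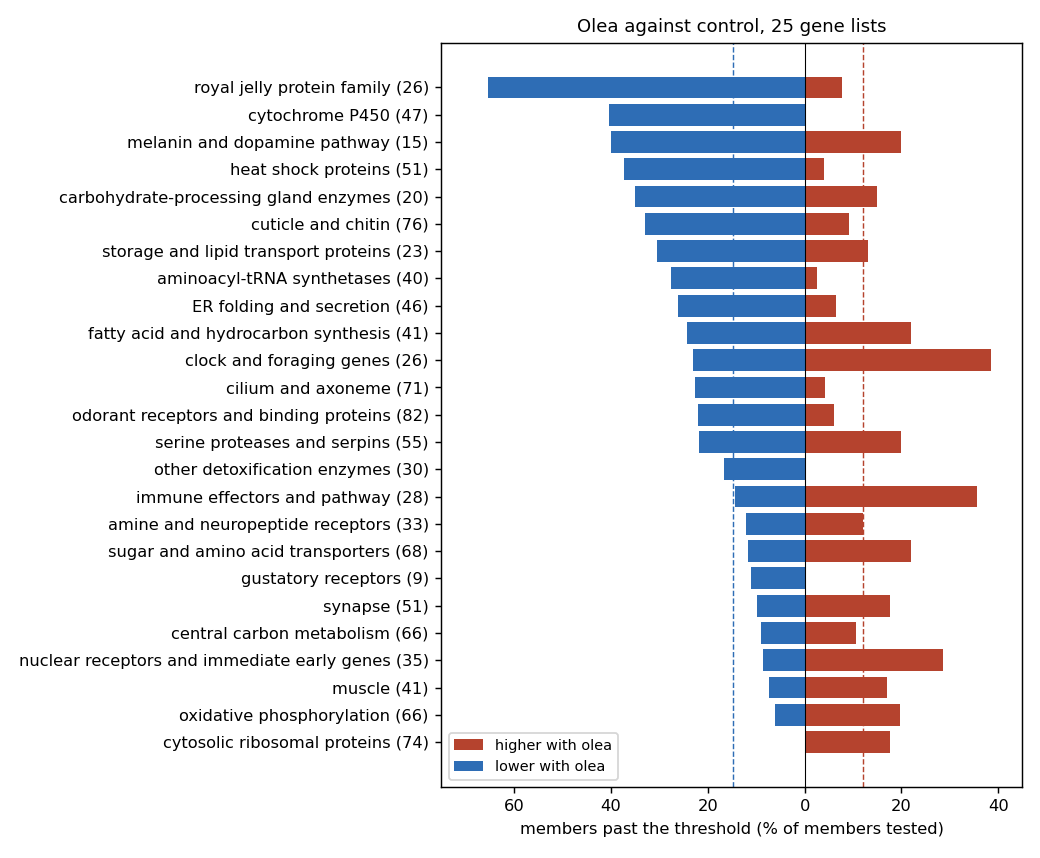
Share of the tested members of each list (number tested in brackets) that were higher (right) or lower (left) with olea than in control mouthparts, in % of members tested. Dashed lines mark the shares over all genes, 12% higher and 14.8% lower. The royal jelly family has the largest lower share, and cytochrome P450 genes have a lower share and no higher one.

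Among genes of no list, a leucine rich repeat gene (GB50423) rose from 151, 153 and 164 CPM to 542, 462 and 442 CPM, by 1.57 ± 0.11 (adjusted p = 6.1e-06). A glutamyl aminopeptidase (GB42427), which trims peptides, rose by 1.45 ± 0.10, from 30.4 to 33.0 CPM up to 81.4 to 102.5 CPM. Both had olea replicate 1 as the highest library. A cytochrome b561 gene (GB40148), an inositol polyphosphate 5-phosphatase (GB50043) and a phospholipase A1 (GB43513) rose by 1.31 ± 0.08, 1.24 ± 0.06 and 1.19 ± 0.14, and GB51985, named only by a viral-type domain, by 1.40 ± 0.16. By level the largest rise among named genes outside the royal jelly family was that of an ecdysteroid kinase domain gene (GB40157), from 4135, 4160 and 3985 CPM to 6765, 6014 and 6667 CPM.

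Olea and pear mouthparts were then compared directly, which needs no control library and asks whether the pollen groups differ. Of 12285 genes 3793 passed, 30.9%, with 1835 higher with olea (14.9%) and 1958 lower (15.9%). With library totals alone 31.3% of the calls were higher, and on log2(FPKM + 1) 26.7%, against 48.4% here. Glucose oxidase (GB44549) differed most clearly, by 6.75 ± 0.16 in log2 (adjusted p = 1.9e-09), with 703 to 1018 CPM with olea against 7.63 to 8.66 CPM with pear and 3538 to 4193 CPM in controls. Amylase (GB49854) and the glucose oxidase GB51446 were higher with olea by 9.77 and 6.21, as pear had 0.206 and 0.639 CPM of them on average. The royal jelly genes GB55205, GB45797 and GB55209 were higher with olea by 6.73 ± 0.78, 7.16 ± 1.1 and 6.03 ± 0.79, whereas GB45796 and GB55206 did not pass (0.58 ± 0.25 and 0.60 ± 0.41). Pear mouthparts held 2.61 to 5.68 CPM of GB55205.

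Genes that passed against both control and pear were more often lowest with olea, at 770, or highest with olea, at 447, than in between. Olea lay in between for 222 genes with controls highest and for 100 with pear highest. Both comparisons use the same olea libraries, so deviations of these libraries favour the lowest and highest orders. The split was counted only with the scaling used here. The genes named next are thus examples of an order that was less frequent in this count. They had the order of glucose oxidase, with controls highest, olea next and pear lowest. Cytochrome P450 4C1 (GB47270) was at 115, 107 and 85.8 CPM in controls, at 74.0, 59.5 and 65.2 CPM with olea and at 2.8, 3.08 and 2.98 CPM with pear, and differed between olea and pear by 4.56 ± 0.14 (adjusted p = 2.3e-09). A juvenile hormone binding protein gene (GB42556), of a family of carriers of that hormone, was at 192 to 205 CPM, 96.1 to 117 CPM and 10.8 to 14.7 CPM. P450 6a14-like (GB49876) and the EB module gene GB42311 had the same order, with 2.34 ± 0.08 and 2.70 ± 0.08 between olea and pear. For all 4 the 3 groups did not overlap, which their choice by smallest p favoured. The serotonin receptor (GB48005) was higher with olea than with pear by 3.20 ± 0.16.

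Other genes were lowest with olea. SMC3-like (GB50997), of the chromosome cohesin ring, was at 52.2 to 54.9 CPM in controls, 26.5 to 30.6 CPM with olea and 67.0 to 76.6 CPM with pear, with -1.27 ± 0.07 between olea and pear. An AMP-binding enzyme gene (GB46429), a Golgi glycoprotein (GB49406) and carbonic anhydrase 13-like (GB42541), which interconverts carbon dioxide and bicarbonate, were lower with olea by 1.01 ± 0.07, 1.26 ± 0.09 and 1.27 ± 0.09 in log2. Gudu (GB49219) was lower with olea than with pear by 2.09 ± 0.12, at 5.89 to 6.69 against 27.0 to 28.4 CPM, so its 3 groups rose from control to olea to pear. Tyrosine 3-monooxygenase (GB40967) had the same order, at -0.44 ± 0.06 between olea and pear. Oxidative phosphorylation genes were higher with olea than with pear for 52 of 66 and lower for 1, and ribosomal proteins were higher for 50 of 74 and lower for 0. List counts against pear were taken only with the main settings.

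Photoreceptor markers differed between olea and pear, with 6 of 10 higher with olea and 0 lower. Long-wavelength rhodopsin (GB50196), the main visual pigment of the eye, was at 31.3 to 36.6 CPM in controls, at 23.4, 34.0 and 46.9 CPM with olea and at 0.818 to 1.11 CPM with pear. Olea and control overlapped, and olea was higher than pear by 5.23 in log2 (adjusted p = 6.1e-06). An arrestin (GB51068), which shuts off rhodopsin, and the blue opsin (GB41643) were higher with olea by 2.88 and 2.07. The summed level of these markers was 0.0263% to 0.0311% of counts with olea and 0.0182% to 0.0213% with pear, and its part in the differences between olea and pear was not tested. Most of that sum was beta-arrestin-1 (GB42604), at a mean of 189.9 CPM with olea and 171.4 CPM with pear, so it shows little of the difference in rhodopsin. Without pear replicate 2 the number of genes that passed was 3202.

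**Figure D5:**
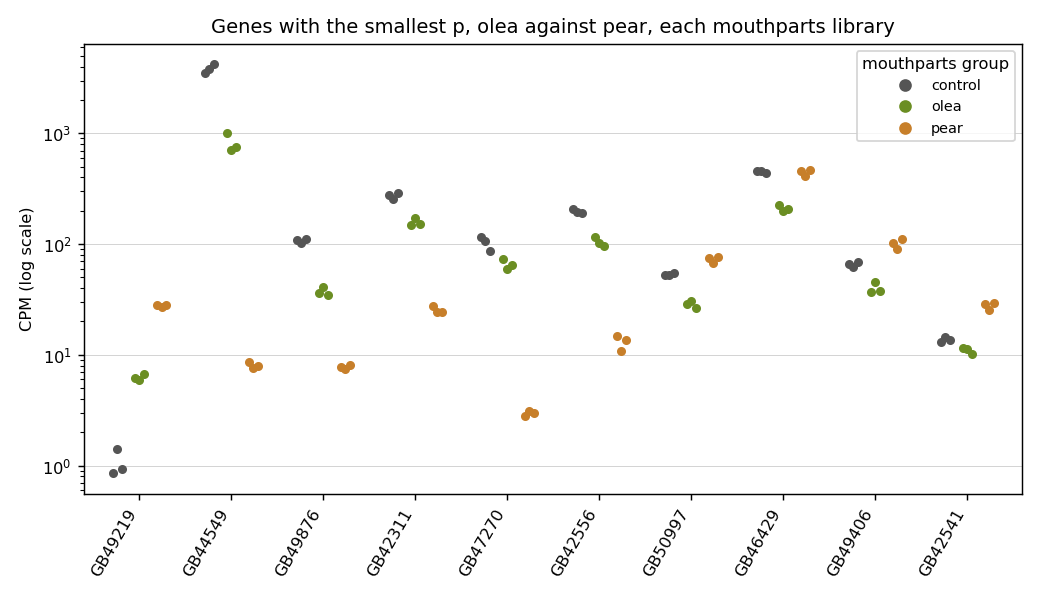
Levels in CPM on a log axis in each mouthparts library (points) for the named genes of smallest p between olea and pear. Olea points lie between control and pear points for GB49219, GB44549, GB49876, GB42311, GB47270 and GB42556, and below both for GB50997, GB46429, GB49406 and GB42541.

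The olea effect was also compared between tissues, as the difference between olea and control in the mouthparts minus that in the tentacles, in a fit of all 18 libraries. Of 13361 genes 2056 passed, 15.4%, with 659 positive (4.93%) and 1397 negative (10.5%). With library totals alone 58.4% of the calls were positive, against 32.1% here, 41.3% with RLE size factors, 43.2% with DESeq2 and 50.5% on log2(FPKM + 1). Glucose oxidase (GB44549) had a difference of 7.55 ± 0.49 (adjusted p = 7.6e-07). In the tentacles it fell from 650 ± 150 to 0.705 ± 0.22 CPM (SD, n = 3 each). The royal jelly gene GB55205 was at 11390.9 ± 2900 CPM in control and 1.42 ± 0.35 CPM in olea tentacles.

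Tyrosine 3-monooxygenase (GB40967) rose in the mouthparts and was at 137 ± 6.6 CPM in control and 132 ± 4.7 CPM in olea tentacles, a difference between tissues of 0.78 ± 0.08 (adjusted p = 5.8e-06). The amino acid transporter GB46422 rose in the mouthparts and was at 102 ± 3.2 and 89.5 ± 2.3 CPM in the tentacles, with 0.76 ± 0.07. The immediate early receptors went the other way. HR38 (GB49295) was at 8.21 ± 1.4 CPM in control and 23.3 ± 0.84 CPM in olea tentacles and did not pass in the mouthparts, and its difference between tissues was -1.25 ± 0.25 (adjusted p = 0.0021). NR4A2 (GB40074) had -0.94 ± 0.21. P450 6a14-like (GB49876) and phenoloxidase 2 (GB44996) had negative differences between tissues, at -1.10 ± 0.10 and -2.22 ± 0.22. E75 (GB47224) and the insulin receptor (GB53865) had differences of 0.00 ± 0.14 and 0.04 ± 0.08, which did not pass.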

How the data were processed

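Per the labels' protocols, a Qiagen RNeasy kit gave the RNA and a SMARTER kit the libraries. Reads were mapped with HISAT2, per the submitters' processing notes, with its version, the genome build, annotation, counter and strandedness not given in the sources used here. Per the file headers, the deposited values are raw counts and FPKM (fragments per kilobase per 1e6 fragments) for each gene. Names are the best KEGG hit of the deposited table with an e-value of at most 1e-10, or else its Pfam domain, so a name can stand for a relative, and 7052 of 17545 genes have none. Overlapping and antisense genes cannot be told apart.

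The test on counts was a robust quasi-likelihood fit in edgeR 4.0.16 (R 4.3.3), after filterByExpr by group and TMM scaling, of the 9 mouthparts libraries, or of all 18 for the difference between tissues. Adjusted p is Benjamini-Hochberg adjusted over all genes tested, with the threshold at 0.05. Standard errors come from the F statistic, and the code was tested on simulated data. FPKM values were used as log2(FPKM + 1) with limma 3.58.1 in an alternative, and DESeq2 1.42.0 was another. Further alternatives were other scalings and count filters, thinned counts, other sets of libraries, the replicate number in the model and leaving out each library. No lines other than genes entered the totals.

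The 25 gene lists and the marker lists were made from words in names and domains, and the members and lists were chosen with earlier results of these data known. Genes named in the text have a name or domain, at least 5 CPM in the control or olea group and no overlap between groups, and are the 12 largest rises and 12 largest falls in log2 and the 4 largest each way in CPM. To these come the 2 members of smallest p of each list, a few fixed members, and the 5 of smallest p each way against pear and between tissues. Other members named with a list were chosen after their values were seen. Of the fixed members, 2 cGMP-dependent kinase entries were under the count filter. Gene and protein sequences are not used here.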

Additional observations from a re-analysis of the deposited data

Results flagged for a closer look

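The olea effect differed between mouthparts and tentacles, by a test of the difference itself (edgeR's quasi-likelihood test on the interaction of tissue and pollen), for 2056 of 13361 genes, 15.4%.

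The following named genes had the smallest p of that test in each direction. Glucose oxidase (GB44549) had a difference of 7.55 in log2, with 3538 to 4193 CPM in control and 703 to 1018 CPM in olea mouthparts, against 650 ± 150 and 0.705 ± 0.22 CPM in the tentacles. Glucose dehydrogenase (GB44548) had 1.20, with a mouthparts effect of 0.03 ± 0.08 that did not pass and 105 ± 15 against 45.7 ± 0.95 CPM in control and olea tentacles. A phosphate cotransporter (GB47055) had 1.46, with 15.9 to 19.2 CPM in control and 24.9 to 29.2 CPM in olea mouthparts, against 8.19 ± 1.0 and 4.22 ± 0.45 CPM in the tentacles. Tyrosine 3-monooxygenase (GB40967) had 0.78 and the amino acid transporter GB46422 had 0.76.

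Lysosomal alpha-mannosidase (GB44223) had -1.52, with 120.3 to 135 CPM in control and 43.4 to 44.6 CPM in olea mouthparts, against 147 ± 2.0 and 135 ± 2.2 CPM in the tentacles. Asparagine synthetase (GB45340) had -1.64, with 71.0 to 77.5 against 18.9 to 24.3 CPM in the mouthparts and 33.4 ± 2.5 against 28.0 ± 1.9 CPM in the tentacles. Cathepsin B (GB44146) had -1.35, as its mouthparts effect was -0.02 ± 0.07 and its tentacle level was 190.5 ± 12 CPM in control and 469.9 ± 13 CPM with olea. The AMP-binding enzyme gene GB46289, named luciferin 4-monooxygenase, had -2.99, and the multivitamin transporter GB40086 had -3.55. Both were abundant in control tentacles, at 6268 ± 160 and 1375 ± 130 CPM, and fell in the mouthparts from between 32.5 and 47.3 CPM to between 4.92 and 8.32 CPM and from between 8.83 and 12.7 CPM to between 0.636 and 1.7 CPM.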

How the results depend on the processing

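The counts of genes past the threshold stayed within 1.5 times under every alternative run. For olea against control they ran from 3006 to 3737 over the settings with all libraries, and from 2303 to 3157 leaving out 1 library. For olea against pear they ran from 3286 to 4147 and from 2638 to 3877, and for the difference between tissues from 1644 to 2363 and from 1442 to 2178. With the replicate number as a block the counts were 3397, 3956 and 1933. The numbers do not pair the libraries, since deviations of same-numbered control and olea libraries correlated at -0.0784, -0.0582 and 0.0592. Between olea and pear they correlated at 0.118, 0.0796 and 0.0251, and every olea and pear library correlated best with its own number, which is a hint from the data and not from the design. Of the named genes, 9 alternative values no longer passed, 4 newly passed and 2010 kept their direction and side of the threshold. The 5 that changed sign belong to 2 genes that did not pass. GB44548 was at -0.03 without olea replicate 1 and at up to 0.11 without another library. GB44146 was at 0.05 with library totals and at 0.02 on log2(FPKM + 1), without control replicate 1 and without olea replicate 3, and as low as -0.04 without another library. The causes were not tested. Members of a list counted as higher or lower moved by over 1.5 times in 83 of 848 alternatives. At levels under 1 CPM a gene rests on few counts, and a difference there may not be detectable at this depth.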

Other observations

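Genes without a name or domain held further large differences. Of those with at least 5 CPM in the control or olea group, 341 passed, 209 higher and 132 lower with olea (edgeR's quasi-likelihood test). The number of such genes tested was not counted, so no share can be set beside the 26.8% over all genes. GB53115 was at 226, 117 and 209 CPM in the control mouthparts and at 0.0, 0.149 and 0.0774 CPM with olea, and it fell by 11.24 ± 0.55 in log2. That fitted value rests on 0, 4 and 2 counts in the olea libraries. With pear it had 0, 3 and 0 counts. GB48969 was at 16.7, 8.5 and 42.1 CPM in controls, at 0.0, 0.0 and 0.116 CPM with olea and at 2.28 to 3.9 CPM with pear, and it fell by 9.13 ± 1.21. GB51223 rose by 2.09 ± 0.25, from 16.8 to 26.9 CPM up to 124.5, 84.4 and 73.4 CPM, and GB42609 rose by 1.42 ± 0.10. The deposited files pair none of these with a gene name.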
